A study of Brassica napus and Camelina sativa and Thlaspi arvense with 24 samples.

Results

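Field pennycress (Thlaspi arvense) is an oilseed plant of the cabbage family. Its cotyledons are the embryonic seed leaves, which feed the seedling from their reserves and then turn green, and its true leaves form later at the shoot apex. The first true leaves were compared with the cotyledons of young, untreated seedlings of 1 line, collected in the field, labelled Field pennycress and raised in a growth chamber. RNA of 3 cotyledon and 3 leaf libraries was sequenced, out of 24 libraries of 4 lines in the series. The labels describe the cotyledons as fully expanded. The genes compared were those with a mean of at least 1 TPM over the 6 libraries, 14617 of the 26332 genes of the pennycress table. TPM gives the share of a gene among all transcripts of a library, corrected for transcript length and scaled to a fixed total.

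A green organ makes sugars in its chloroplasts, where 2 photosystems pass electrons through carriers to ferredoxin and the Calvin cycle uses the resulting energy to fix carbon. An expanding organ loosens its cell walls with expansins and xyloglucan-modifying enzymes, largely under auxin, and covers itself with a cuticle of cutin and waxes. Cotyledons in addition mobilise storage compounds and senesce before the leaves do. The deposited table gives gene IDs with no names. Of these IDs, 1733 were paired with 1 Arabidopsis thaliana gene each through the ortholog table of the study, of which a part was used here, and 1467 of them had a mean of at least 1 TPM. The roles given below are those known in Arabidopsis, the pairs rest on reciprocal BLAST hits, and genes outside that part stay unnamed.

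The threshold on the mean left 124 genes between 1 and 1.1 TPM inside and 165 genes between 0.9 and 1 TPM outside. Of the genes tested, 432 had a cotyledon mean under 1 TPM and passed through their leaf values, and 348 had a leaf mean under 1 TPM and passed through their cotyledon values. Of these, 327 were called higher and 228 lower in leaves, a direction that the threshold favours. The libraries correlated within a tissue with r between 0.970 and 0.993 and between tissues with r between 0.876 and 0.928 (Pearson, log2(TPM + 1), across the 14617 genes of 6 libraries). Principal component 1 held 74.6% of the variance and separated the tissues, and component 2 held 14.0% and set cotyledon replicate 2 and leaf replicate 3 apart from the other libraries, on the same side. The 10 most abundant genes took 9.07 to 9.74% of TPM in cotyledons and 10.6 to 13.5% in leaves. The deposited TPM keep no read numbers, so the depth of the libraries is unknown and the spread between the 3 libraries of a tissue is the only measure of precision. In bulk tissue, fewer cells of a type and less RNA per cell cannot be told apart.

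**Figure D1:**
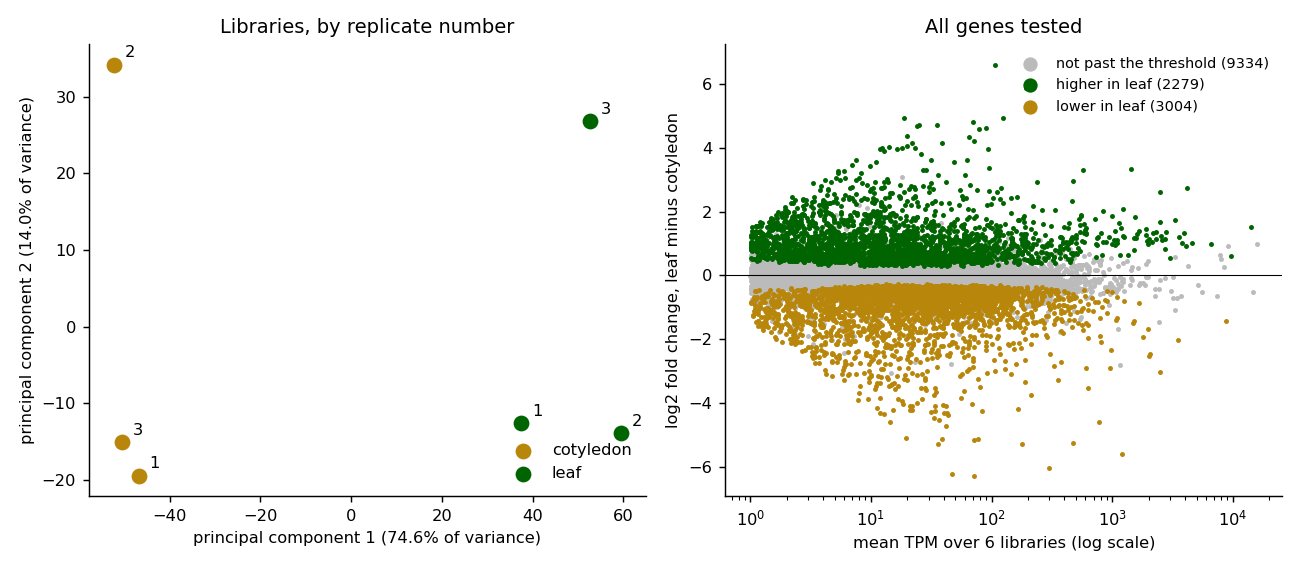
The left panel places the 6 libraries, numbered by replicate, on principal components 1 and 2 of log2(TPM + 1), in the units of that scale. The right panel plots for each of the 14617 genes the mean TPM of the 6 libraries, on a log axis, against the log2 fold change of leaf against cotyledon, in color where the adjusted p was under 0.05. The tissues lie at opposite ends of component 1, and cotyledon replicate 2 and leaf replicate 3 lie highest on component 2.

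With the test of limma on log2(TPM + 1), 5283 of the 14617 genes passed an adjusted p of 0.05, a share of 36.1%. In leaves 2279 genes (15.6%) were higher and 3004 (20.6%) were lower, while 981 and 1041 of these changed by at least 1 on the log2 scale. All 3 leaf libraries lay above all 3 cotyledon libraries for 22.2% of the genes and below them for 32.0%. The median log2 fold change over all genes was -0.10. Rescaling by median-of-ratios factors moved this median to -0.01 and gave 2710 genes higher and 2412 lower, so the majority of lower genes depended on the scaling. Among the 1467 paired genes tested, 223 (15.2%) were higher and 304 (20.7%) lower, with a median of -0.10. Fold changes are on the log2(TPM + 1) scale, leaf minus cotyledon, and understate the change of genes with low values.

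The 10 paired genes that rose most, among those with a mean of 10 TPM or more whose tissues did not overlap, were led by FLA9, a fasciclin-like arabinogalactan protein of the cell surface. It had 0.469, 0.282 and 0.622 TPM in cotyledons and 27.0, 34.5 and 11.9 TPM in leaves (log2 fold change 4.01 ± 0.36 (SE), adjusted p = 0.00102). With a cotyledon mean under 1 TPM, FLA9 passed the threshold on the mean through its leaf values. The expansins EXPA11 and EXPA10, the lipid transfer protein LTPG1, the extensin-like lipid transfer protein AT1G12090 (2.37, 1.70 and 3.01 TPM in cotyledons and 18.0, 17.6 and 20.6 TPM in leaves, log2 fold change 2.57) and the GDSL-type lipase AT1G29670 (7.09, 3.48 and 8.69 TPM in cotyledons and 59.9, 32.5 and 27.2 TPM in leaves, log2 fold change 2.45) were also among them. The others were AT1G21500, an acid phosphatase-family protein (AT1G04040), a glutaredoxin-family protein (AT1G06830) and the plastid glyoxylate reductase AT1G17650, an enzyme that clears glyoxylate. AT1G21500 reached 97.5, 104 and 110.1 TPM in cotyledons and 556, 877 and 1115 TPM in leaves (log2 fold change 2.96 ± 0.25 (SE), adjusted p = 0.000889). AT1G17650 had 4.06, 7.59 and 2.45 TPM in cotyledons and 21.8, 29.2 and 47.5 TPM in leaves (log2 fold change 2.60 ± 0.39 (SE), adjusted p = 0.00458). In these genes every leaf library was above every cotyledon library, which the rule required.

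The 10 paired genes that fell most, by the same rule, included BFN1 and MAN1. BFN1, a nuclease of senescence and developmental cell death, stood at 94.5, 23.8 and 111 TPM in cotyledons and 2.90, 3.12 and 2.41 TPM in leaves (log2 fold change -4.08 ± 0.54 (SE), adjusted p = 0.00311). The other, MAN1 (AT1G02310), an endo-beta-mannanase that degrades wall mannans, fell from 56.3, 42.6 and 52.1 TPM in cotyledons to 3.97, 3.06 and 1.09 TPM in leaves (log2 fold change -3.87 ± 0.32 (SE), adjusted p = 0.000816). The cytochrome P450 CYP71B2 (AT1G13080) fell from 37.0, 19.8 and 36.5 to 4.12, 3.58 and 1.902 TPM (log2 fold change -2.92 ± 0.31 (SE), adjusted p = 0.00152). The largest fall was that of AT1G18940, a nodulin-like membrane protein with 45.2, 29.0 and 42.3 TPM in cotyledons and 0.473, 0.0147 and 0 TPM in leaves (log2 fold change -5.10 ± 0.23 (SE), adjusted p = 0.000118). Its leaf mean was under 1 TPM, so it passed the threshold on the mean through its cotyledon values. The glutaredoxin GRXS13 (AT1G03850) had 118, 83.5 and 122 TPM in cotyledons and 26.2, 18.0 and 3.72 TPM in leaves (log2 fold change -2.998 ± 0.61 (SE), adjusted p = 0.0117). The further genes were AT1G13830, AT1G13520, AT1G28190, AT1G02470 and AT1G10140, with log2 fold changes of -3.42, -3.27, -3.22, -2.78 and -2.64.

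Larger changes occurred among IDs with no pair here. CAH2076163 rose from 0.833, 0.833 and 1.88 TPM in cotyledons to 199, 255 and 177 TPM in leaves (log2 fold change 6.62 ± 0.22 (SE), adjusted p = 8.96e-05). CAH2079733 rose from 3.65, 7.10 and 2.11 to 141, 213 and 795 TPM (log2 fold change 5.88 ± 0.66 (SE), adjusted p = 0.00187), with the highest value in leaf replicate 3. CAH2067032 fell from 118, 194 and 116 to 2.68, 0.215 and 0.281 TPM (log2 fold change -6.28 ± 0.45 (SE), adjusted p = 0.000499). CAH2046261 had 74.1, 31.8 and 176 TPM in cotyledons and was listed at 0 in each leaf library, so no fold is given. It passed the threshold on the mean through its cotyledon values. Over the whole table, 4 genes had a cotyledon mean under 0.1 TPM with a leaf mean of at least 5 TPM, and 8 genes the reverse.

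**Figure D2:**
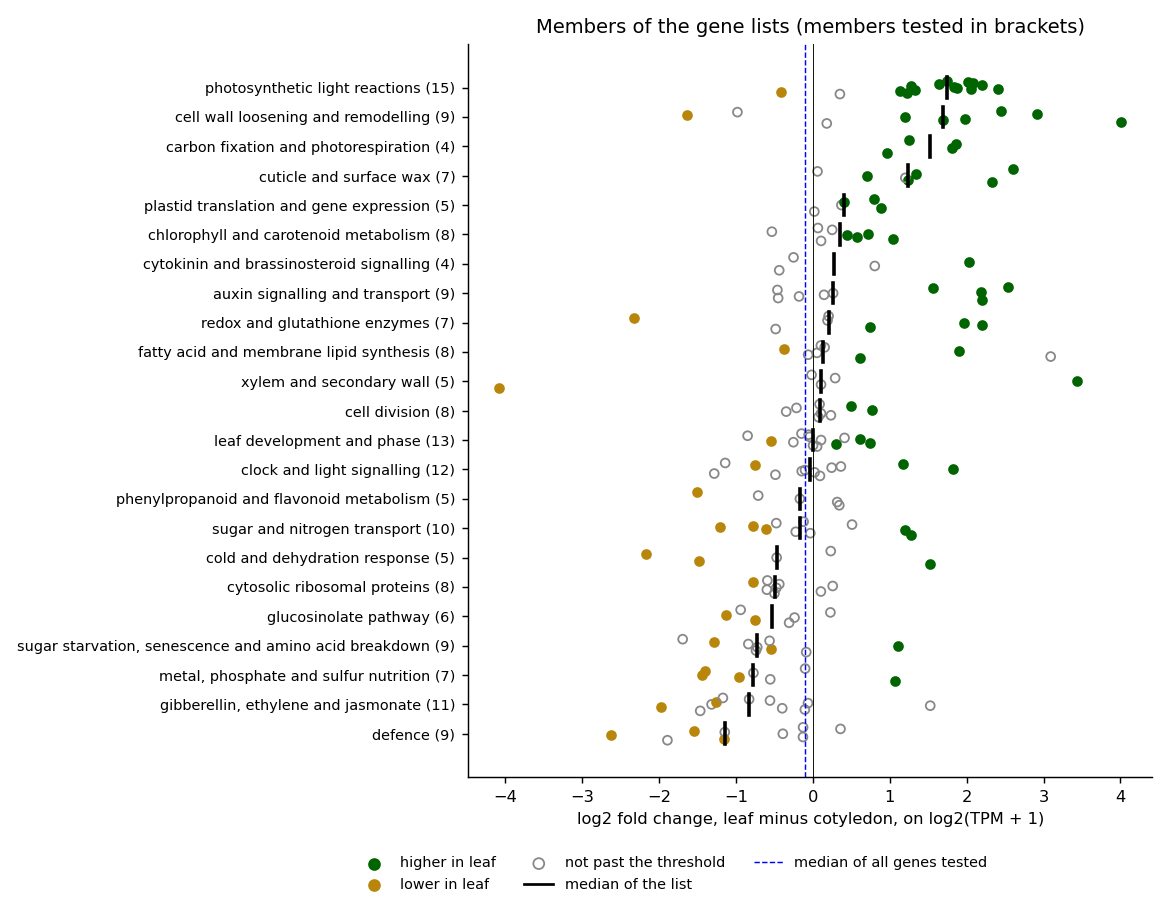
Each point is the log2 fold change of leaf against cotyledon of 1 gene, in the 23 functional lists with the number of members tested in brackets. Filled points passed an adjusted p of 0.05, black bars are list medians and the dashed line is the median of all genes tested, -0.10. The list medians run from -1.14 (defence) to 1.75 (light reactions).

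Of the 187 list members tested, markers included, 58 were higher and 26 lower in leaves. Among all 14617 genes tested, 2279 (15.6%) were higher and 3004 (20.6%) lower. The lists were chosen with earlier results of these data known. A difference between their counts and these shares can therefore come from the choice of members, and it was not tested.

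Transcripts of the photosynthetic light reactions were higher in leaves. Of the 15 members, all tested, 13 passed the test as higher and 1 as lower, with a median log2 fold change of 1.75 against -0.10 over all genes. The share of members higher was thus 86.7%, beside 15.6% of all genes tested. In 14 of the 15 genes the 3 leaf libraries lay above the 3 cotyledon libraries, as they did for 22.2% of all genes. Plastocyanin PETE2, the carrier that brings electrons to photosystem I, had 437, 538 and 408 TPM in cotyledons and 1424, 2119.9 and 2402 TPM in leaves (log2 fold change 2.08 ± 0.23 (SE), adjusted p = 0.00183). Of the photosystem I subunits, PSAF, which docks plastocyanin, had 1482, 1505 and 1500.2 TPM in cotyledons and 3977, 5441 and 5904 TPM in leaves (log2 fold change 1.75 ± 0.20 (SE), adjusted p = 0.00188). PSAO, which had the highest mean of the list, had 2310.1, 2011 and 2409.7 TPM in cotyledons and 4639, 6171 and 6258 TPM in leaves (log2 fold change 1.33 ± 0.20 (SE), adjusted p = 0.00434). PSAK rose from 291, 369.6 and 319 to 979, 1322 and 1786 TPM. In none of these 4 genes did the tissues overlap.

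At the photosystem II side, the oxygen-evolving subunit PSBP1 had 1339.6, 1604 and 1355 TPM in cotyledons and 2457, 3151 and 4006 TPM in leaves (log2 fold change 1.14 ± 0.22 (SE), adjusted p = 0.00961). The minor antenna protein LHCB6 had 349.9, 473 and 409.8 TPM in cotyledons and 1037, 1446 and 2233 TPM in leaves (log2 fold change 1.87 ± 0.29 (SE), adjusted p = 0.0049). Leaf ferredoxin FD1, the electron acceptor behind photosystem I, stood at 71.7, 142 and 97.2 TPM in cotyledons and 331, 443 and 500.1 TPM in leaves (log2 fold change 2.06 ± 0.27 (SE), adjusted p = 0.00312). The ferredoxin-NADP+ oxidoreductase LFNR2, which passes the electrons on to NADP+, had 181, 255 and 196 TPM in cotyledons and 479, 647 and 893 TPM in leaves. The largest fold changes belonged to proteins around the NDH complex, which returns electrons from ferredoxin to the carriers between the photosystems. PNSL2 had 1.26, 5.27 and 1.004 TPM in cotyledons and 11.6, 11.9 and 25.0 TPM in leaves (log2 fold change 2.40 ± 0.49 (SE), adjusted p = 0.0116). LHCA6, the antenna protein that ties photosystem I to this complex, had 21.6, 49.9 and 22.7 TPM in cotyledons and 89.1, 110.0 and 259.9 TPM in leaves (log2 fold change 2.19 ± 0.47 (SE), adjusted p = 0.0137). PNSB1 and PNSB4, further NDH subunits, changed by 1.84 and 1.27 on the log2 scale. Of the assembly factors of photosystem II, PSB27 rose by 1.22 on the log2 scale. LPA1 had 6.07, 6.18 and 5.57 TPM in cotyledons and 7.25, 7.23 and 9.23 TPM in leaves and did not pass (adjusted p = 0.0666). LPA19 had 7.01, 5.78 and 5.45 TPM in cotyledons and 4.27, 3.92 and 4.66 TPM in leaves (log2 fold change -0.42 ± 0.13 (SE), adjusted p = 0.0434). Its call was lost under the median-of-ratios rescaling and the rescaling without the 10 most abundant genes, and held in 4 of 16 alternatives. The calls lost on leaving out 1 library were those of LHCA6 without cotyledon replicate 3 (adjusted p up to 0.051) and of LPA19 when any 1 library was left out (adjusted p up to 0.132).

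Within leaves, replicate 3 held the highest value in 15 of 15 genes of the light reactions and replicate 1 the lowest in 13. Within cotyledons, replicate 2 held the highest value in 12 of 15. With cotyledon replicate 2 and leaf replicate 3 left out together, a fit added once the data had been looked at, 13 genes were again higher and 0 lower, with a median of 1.64.

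The enzymes of carbon metabolism in the chloroplast and of photorespiration followed the same direction. All 4 members tested were higher in leaves (100%, beside 15.6% of all genes), with a median of 1.53, and 1 member had no pair. GAPA2, a glyceraldehyde-3-phosphate dehydrogenase of the Calvin cycle, had 170.3, 333 and 204 TPM in cotyledons and 567, 790.1 and 1238 TPM in leaves (log2 fold change 1.86 ± 0.35 (SE), adjusted p = 0.00921). Photorespiration recovers carbon after oxygen is taken up in place of CO2. In that pathway the T-protein GLDT of glycine cleavage had 68.4, 98.5 and 71.3 TPM in cotyledons and 212, 268 and 369.7 TPM in leaves (log2 fold change 1.804 ± 0.24 (SE), adjusted p = 0.00304). The peroxisomal glutamate:glyoxylate aminotransferase GGT1 had 1008, 1421 and 972 TPM in cotyledons and 2271, 2957 and 2802 TPM in leaves (log2 fold change 1.25 ± 0.21 (SE), adjusted p = 0.00614). TRXM1, a thioredoxin that regulates chloroplast enzymes, changed by 0.97, the smallest of these.

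Of 8 genes of chlorophyll and carotenoid metabolism, 4 rose (50%, beside 15.6% of all genes) and none fell, with a median of 0.35. PORC, the light-dependent protochlorophyllide oxidoreductase, had 80.7, 110.5 and 95.9 TPM in cotyledons and 148, 193 and 265 TPM in leaves (log2 fold change 1.04 ± 0.23 (SE), adjusted p = 0.0149). The xanthophyll cycle enzyme VDE had 41.2, 36 and 44.1 TPM in cotyledons and 61.7, 70.2 and 69.8 TPM in leaves (log2 fold change 0.72 ± 0.12 (SE), adjusted p = 0.00567). The carotenoid isomerase CRTISO changed by 0.57 (SE 0.14) and the magnesium chelatase subunit CHLD by 0.44 (SE 0.12). HEMF1, HEMA2, Z-ISO and the chlorophyllase CLH1 did not pass the test, and CLH1 ranged within leaves alone from 10.1 to 38.6 TPM. Of 5 genes of plastid gene expression, the plastid ribosomal proteins RPL4 (AT1G07320) and RPL34 (AT1G29070) and the translation initiation factor FUG1 rose, by 0.89, 0.80 and 0.40. These were 60% of that list, beside 15.6% of all genes. The sigma factor SIG2 had 32.8, 41.3 and 34.7 TPM in cotyledons and 43.1, 39.7 and 60.7 TPM in leaves and did not pass (adjusted p = 0.149), nor did the chloroplast RNA-binding protein AT1G01080. Leaving out single libraries ended the call of PORC without cotyledon replicate 1 (adjusted p up to 0.0521), of CRTISO without cotyledon replicate 1 or 3 or leaf replicate 2 or 3 (adjusted p up to 0.0777), of CHLD without cotyledon replicate 1, 2 or 3 or leaf replicate 2 or 3 (adjusted p up to 0.106), of RPL4 without cotyledon replicate 1 or 3 or leaf replicate 2 (adjusted p up to 0.0887), of RPL34 without cotyledon replicate 1 or 3 or leaf replicate 1 or 3 (adjusted p up to 0.11) and of FUG1 without cotyledon replicate 1, 2 or 3 or leaf replicate 2 or 3 (adjusted p up to 0.1).

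**Figure D3:**
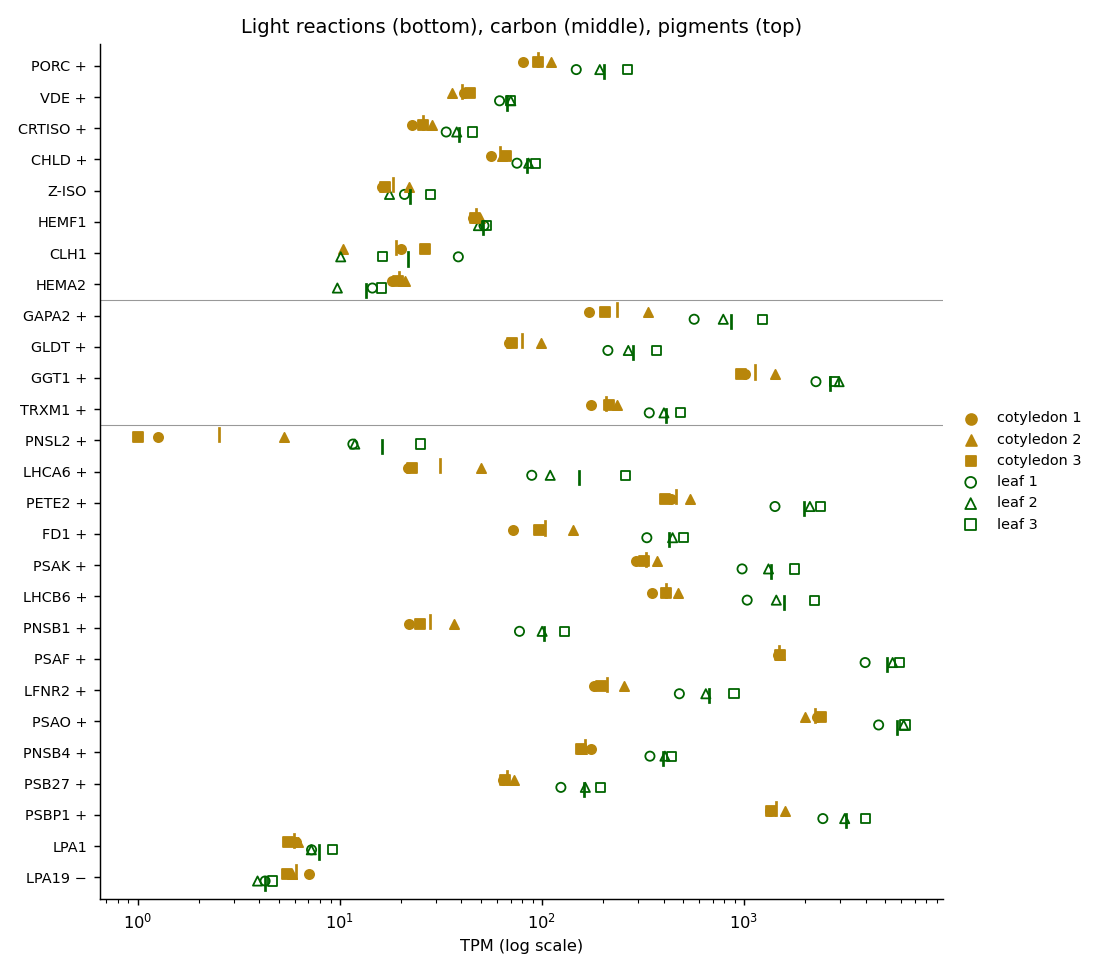
TPM of each library, on a log axis, for the tested members of 3 lists separated by lines. Filled symbols are cotyledon and open symbols leaf libraries, with circle, triangle and square for replicates 1, 2 and 3, the short bars are the means of 3 libraries, and + or − after a symbol marks a gene higher or lower in leaf at an adjusted p of 0.05. Leaf values of the light reactions lie to the right of the cotyledon values except for LPA19.

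Of 8 cytosolic ribosomal proteins 1 was lower (12.5%, beside 20.6% of all genes) and none higher, with a median of -0.49. For 5 of them all leaf libraries lay below all cotyledon libraries, as they did for 32.0% of all genes. RPL34A had 64.2, 89.6 and 54.2 TPM in cotyledons and 44.9, 34.9 and 37.9 TPM in leaves (log2 fold change -0.78 ± 0.20 (SE), adjusted p = 0.0243). RPL19A, the most abundant member, had 553, 747 and 534 TPM in cotyledons and 467, 380.0 and 440.5 TPM in leaves (adjusted p = 0.0628). RPS15A had 437, 564 and 366 TPM in cotyledons and 514, 435 and 503 TPM in leaves (adjusted p = 0.678). For 7 of the 8 genes cotyledon replicate 2 was the highest of its tissue. With 1 library fewer, an adjusted p of 0.05 was missed by RPL34A without cotyledon replicate 1 or leaf replicate 2 or 3 (adjusted p up to 0.0816).

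Of 7 tested cuticle and wax genes 5 rose (71.4%, beside 15.6% of all genes) and none fell (median 1.23), 1 had a mean under 1 TPM and 1 had no pair. Waxes start from fatty acids that 3-ketoacyl-CoA synthases lengthen. KCS1 of this enzyme family had 12.5, 7.77 and 12.1 TPM in cotyledons and 65.1, 50.1 and 57.4 TPM in leaves (log2 fold change 2.33 ± 0.19 (SE), adjusted p = 0.000837). KCS4 had 11.5, 12.8 and 6.87 TPM in cotyledons and 25.7, 25.2 and 30.9 TPM in leaves (log2 fold change 1.35 ± 0.22 (SE), adjusted p = 0.00587). LTPG1, a lipid transfer protein of wax export, had 8.03, 6.75 and 8.04 TPM in cotyledons and 70.5, 54.1 and 35.2 TPM in leaves (log2 fold change 2.61 ± 0.24 (SE), adjusted p = 0.00109). GPAT4, which makes cutin precursors, had 17.5, 14.4 and 16.1 TPM in cotyledons and 39.96, 43.4 and 33.8 TPM in leaves (log2 fold change 1.23 ± 0.13 (SE), adjusted p = 0.00153). The exporter ABCG11 changed by 0.71 (SE 0.20). KCS2 had 3.33, 2.27 and 2.78 TPM in cotyledons and 14.5, 7.88 and 3.72 TPM in leaves, a leaf range of which replicate 3 was the low end, and did not pass (adjusted p = 0.0566). The threshold was no longer passed by ABCG11 without cotyledon replicate 1, 2 or 3 or leaf replicate 1 or 2 (adjusted p up to 0.0963).

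Upstream of the waxes, fatty acid synthesis was mixed. Of 8 genes of fatty acid and membrane lipid synthesis 2 rose and 1 fell (25 and 12.5%, beside 15.6 and 20.6% of all genes), with a median of 0.13. ACLA-1, a subunit of the ATP-citrate lyase that makes acetyl-CoA in the cytosol, had 1.27, 1.43 and 0.882 TPM in cotyledons and 6.89, 6.54 and 8.08 TPM in leaves (log2 fold change 1.901 ± 0.15 (SE), adjusted p = 0.000703). The alpha subunit of plastid pyruvate dehydrogenase had 115, 87.4 and 114 TPM in cotyledons and 178, 173 and 136 TPM in leaves (log2 fold change 0.61 ± 0.17 (SE), adjusted p = 0.0281). Its beta subunit, with 69.7, 55.4 and 64.9 TPM in cotyledons and 75.2, 72.3 and 57.5 TPM in leaves, did not pass (adjusted p = 0.596). LPCAT1, an acyltransferase of phosphatidylcholine, changed by -0.37 on the log2 scale, a call that quantile normalization removed. The desaturase-like ADS1 had 0.486, 0 and 0.213 TPM in cotyledons and 98.2, 9.34 and 0.0908 TPM in leaves, with leaf replicate 3 inside the range of the cotyledons, and did not pass (adjusted p = 0.137). The calls lost on leaving out 1 library were those of PDH-E1 ALPHA without cotyledon replicate 1, 2 or 3 or leaf replicate 1 or 2 (adjusted p up to 0.0931) and of LPCAT1 without cotyledon replicate 1 or 3 or leaf replicate 2 or 3 (adjusted p up to 0.103).

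Of 9 tested genes that loosen or remodel the cell wall 6 were higher in leaves (66.7%, beside 15.6% of all genes) and 1 lower, with a median of 1.70. Of the 6, FLA9 and XTH8 had cotyledon means under 1 TPM and passed the threshold on the mean through their leaf values. Beside FLA9, the expansins, which loosen walls without cutting them, led the list. EXPA11 had 0.834, 0.801 and 4.25 TPM in cotyledons and 39.8, 32.4 and 4.51 TPM in leaves (log2 fold change 2.92 ± 0.81 (SE), adjusted p = 0.0317). EXPA10 had 1.31, 4.38 and 2.13 TPM in cotyledons and 20.5, 22.6 and 11.3 TPM in leaves (log2 fold change 2.44 ± 0.37 (SE), adjusted p = 0.00456). The xyloglucan endotransglucosylase/hydrolases, which cut and rejoin the xyloglucan between cellulose fibrils, went both ways. XTH33 had 2.497, 2.62 and 2.47 TPM in cotyledons and 11.7, 9.89 and 9.80 TPM in leaves (log2 fold change 1.70 ± 0.11 (SE), adjusted p = 0.000426). XTH8 rose by 1.98 on the log2 scale. XTH28 fell from 6.42, 5.76 and 7.37 to 1.92, 1.48 and 0.956 TPM (log2 fold change -1.63 ± 0.18 (SE), adjusted p = 0.00178). The pectin methylesterase PME18 had 56.7, 55.7 and 42.8 TPM in cotyledons and 185, 90.7 and 102 TPM in leaves (log2 fold change 1.20 ± 0.28 (SE), adjusted p = 0.0169). The most abundant member, the xylosidase BXL2, had 892, 464 and 747 TPM in cotyledons and 866, 1036 and 503 TPM in leaves (adjusted p = 0.701). Leaf replicate 3 was the lowest leaf library in 7 of these 9 genes and the highest in none. Leaving out single libraries ended the call of EXPA11 without cotyledon replicate 1 or 2 or leaf replicate 1 or 2 (adjusted p up to 0.0994), of XTH8 without cotyledon replicate 1, 2 or 3 or leaf replicate 1 or 2 (adjusted p up to 0.0807) and of PME18 without cotyledon replicate 3 (adjusted p up to 0.0608).

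Of 9 tested auxin genes 4 were higher in leaves (44.4%, beside 15.6% of all genes) and none lower, with a median of 0.26. Of these 4, PIN7 and SAUR64 had cotyledon means under 1 TPM and passed the threshold on the mean through their leaf values. With cotyledon replicate 2 and leaf replicate 3 left out, 4 genes were higher and 1 was lower. The Aux/IAA repressor IAA17, itself an early auxin response gene, had 3.73, 5.11 and 2.67 TPM in cotyledons and 21.4, 25.8 and 16.1 TPM in leaves (log2 fold change 2.20 ± 0.24 (SE), adjusted p = 0.00164). PIN7, an auxin efflux carrier, had 0.626, 0.424 and 0.796 TPM in cotyledons and 11.7, 7.81 and 2.51 TPM in leaves (log2 fold change 2.19 ± 0.44 (SE), adjusted p = 0.0115). SAUR67, a small auxin up RNA of a family that promotes cell expansion, had 1.23, 0.682 and 2.30 TPM in cotyledons and 17.4, 17.7 and 6.11 TPM in leaves (log2 fold change 2.54 ± 0.43 (SE), adjusted p = 0.00627). SAUR64 of the same family had 0.106, 0.155 and 0.698 TPM in cotyledons and 4.90, 4.39 and 0.754 TPM in leaves (log2 fold change 1.56 ± 0.48 (SE), adjusted p = 0.0421), with leaf replicate 3 close to cotyledon replicate 3. SAUR genes stand in families of near-identical copies, so their reads may be divided between copies. The receptor AFB3, the most abundant of the list, had 36.9, 27.5 and 34.8 TPM in cotyledons and 27.0, 25.3 and 19.6 TPM in leaves and did not pass (adjusted p = 0.0736). Leaf replicate 3 was the lowest leaf library in 6 of the 9 genes. With 1 library fewer, an adjusted p of 0.05 was missed by SAUR64 without cotyledon replicate 1, 2 or 3 or leaf replicate 1 or 2 (adjusted p up to 0.126).

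**Figure D4:**
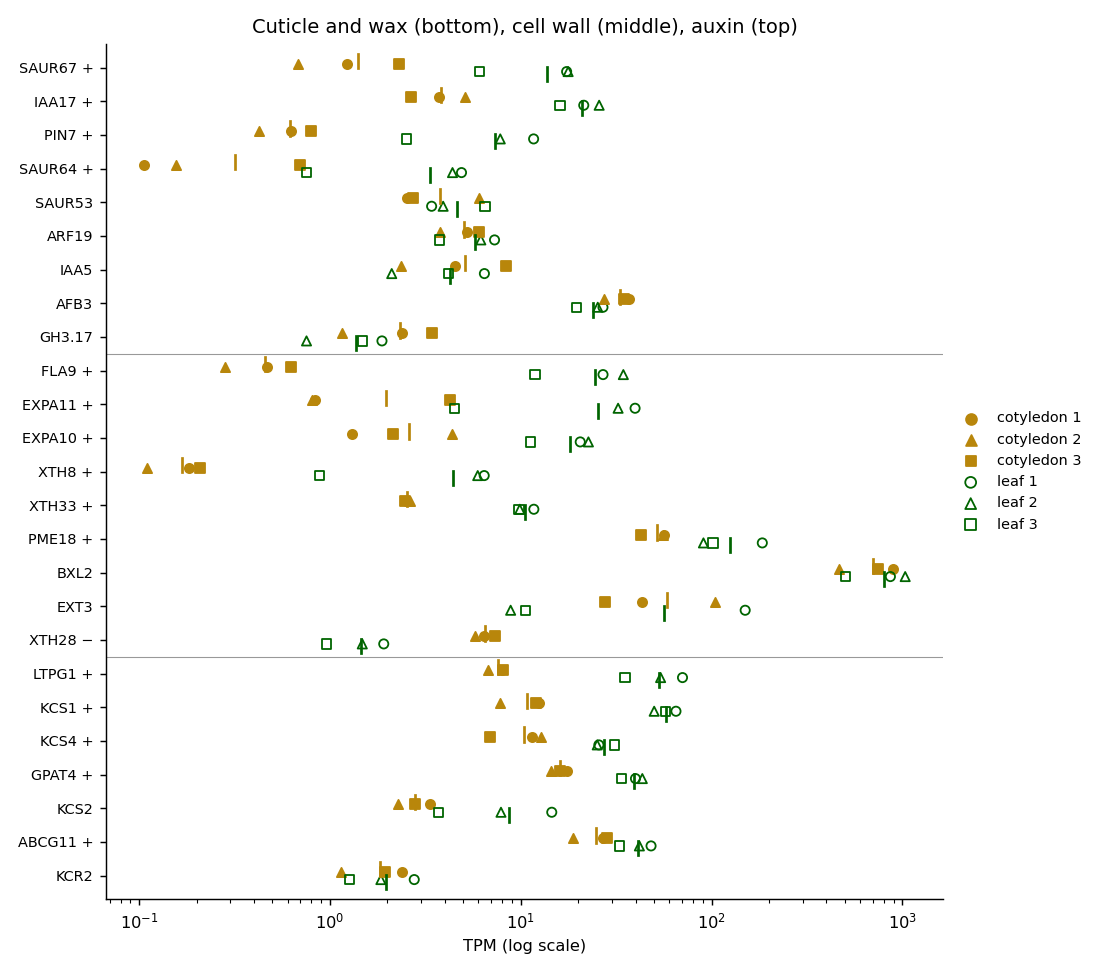
TPM of each library on a log axis for the tested members of the cuticle, cell wall and auxin lists, with symbols, bars and signs as in the plot of the chloroplast genes. Leaf replicate 3 (open squares) lies nearest to the cotyledons in EXPA11, XTH8, SAUR64, SAUR67 and PIN7.

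Cytokinin and brassinosteroid signalling held 1 change among 4 members, a rise (25%, beside 15.6% of all genes). It was in BEE1, a bHLH factor induced by brassinosteroid that promotes growth, with 5.99, 1.39 and 4.57 TPM in cotyledons and 26.4, 18.3 and 10.99 TPM in leaves (log2 fold change 2.03 ± 0.46 (SE), adjusted p = 0.016). The cytokinin receptor AHK3 had 88.4, 72.3 and 89.4 TPM in cotyledons and 79.8, 72.6 and 58.3 TPM in leaves (adjusted p = 0.237). The phosphotransfer protein AHP5 had 42.1, 31.6 and 39.2 TPM in cotyledons and 31.6, 25.6 and 25.3 TPM in leaves (adjusted p = 0.058). Genes of cell division were low in both tissues. Of 15 members 7 had a mean under 1 TPM, among them the cytokinesis genes KNOLLE (0.440, 0.276 and 0.244 TPM in cotyledons and 0.9003, 1.06 and 0.771 TPM in leaves) and HINKEL (0, 0.00786 and 0 TPM in cotyledons and 0.0464, 0.116 and 0.127 TPM in leaves). Of the 8 tested, the A-type cyclin CYCA2;3 (1.86, 2.49 and 1.76 TPM in cotyledons and 3.42, 4.59 and 4.55 TPM in leaves, log2 fold change 0.77 ± 0.16 (SE), adjusted p = 0.0119) and the CDK-activating kinase CDKD;3 (log2 fold change 0.49 ± 0.13 (SE), adjusted p = 0.0271) rose and none fell. Members that rose were thus 25% of those tested, beside 15.6% of all genes. The histone variant H2AX had 19.3, 17.7 and 14.6 TPM in cotyledons and 14.6, 11.3 and 14.1 TPM in leaves (adjusted p = 0.105). The replication clamp PCNA1 had 5.88, 14.7 and 3.45 TPM in cotyledons and 7.59, 5.31 and 13.5 TPM in leaves (adjusted p = 0.734). The threshold was no longer passed by BEE1 without leaf replicate 2 (adjusted p up to 0.0521) and by CDKD;3 without cotyledon replicate 1 or 3 or leaf replicate 1, 2 or 3 (adjusted p up to 0.0879).

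Of 13 tested regulators of leaf development 3 rose and 1 fell (23.1 and 7.69%, beside 15.6 and 20.6% of all genes), with a median of 0.00, and 4 of 20 members had a mean under 1 TPM. MYB60, a guard cell factor, had 16, 15.2 and 16.2 TPM in cotyledons and 24.6, 29.4 and 27.5 TPM in leaves (log2 fold change 0.74 ± 0.10 (SE), adjusted p = 0.00363). FLP, which ends the divisions of guard mother cells, had 5.57, 6.03 and 5.80 TPM in cotyledons and 9.24, 8.67 and 10.4 TPM in leaves (log2 fold change 0.62 ± 0.11 (SE), adjusted p = 0.00724). YAB2, a YABBY factor of lateral organs, rose by 0.30 (SE 0.09). RAV1, a factor that slows leaf growth, had 151, 142 and 150.2 TPM in cotyledons and 106, 117 and 82.4 TPM in leaves (log2 fold change -0.55 ± 0.15 (SE), adjusted p = 0.0286), a call that quantile normalization removed. TEM1, a repressor of flowering, had 134, 81.5 and 146 TPM in cotyledons and 101, 100 and 26.4 TPM in leaves and did not pass (adjusted p = 0.245). The calls lost on leaving out 1 library were those of YAB2 when any 1 library was left out (adjusted p up to 0.123) and of RAV1 without cotyledon replicate 1 or 3 or leaf replicate 1 (adjusted p up to 0.0903).

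In the vascular tissue list the largest change in each direction belonged to a gene of cell death. XCP2, a protease of dying vessel cells, had 0.933, 1.66 and 0.206 TPM in cotyledons and 17.6, 19.1 and 19.96 TPM in leaves (log2 fold change 3.44 ± 0.28 (SE), adjusted p = 0.000774), with a cotyledon mean under 1 TPM, while BFN1 fell, as given above. The xylan enzymes IRX9-L, with 20.5, 23.1 and 22.1 TPM in cotyledons and 21.6, 22.3 and 20.9 TPM in leaves, PARVUS and IRX10 did not pass, so that of 5 members tested 1 rose and 1 fell, with a median of 0.11. These shares of 20% each way stand beside 15.6% higher and 20.6% lower among all genes. The vessel regulator VND4 was below the threshold of 1 TPM, with 0, 0.0421 and 0 TPM in cotyledons and 0.597, 0.725 and 0.632 TPM in leaves, as was the secondary wall factor SND3, with 0.394, 0.296 and 0.441 TPM in cotyledons and 1.70, 1.32 and 1.27 TPM in leaves. In both, every leaf library lay above every cotyledon library, as in 22.2% of the genes tested. MYB61 and LAC1 of this list were also under 1 TPM and went the other way. MYB61 had 0.457, 0.458 and 0.231 TPM in cotyledons and 0.107, 0 and 0.0494 TPM in leaves. LAC1 had 0.174, 0.632 and 0.0823 TPM in cotyledons and 0.0303, 0.0127 and 0.0278 TPM in leaves. In these every leaf library lay below every cotyledon library, as in 32.0% of the genes tested.

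Clock and light signalling genes gave 2 higher and 1 lower of 12 (16.7 and 8.33%, beside 15.6 and 20.6% of all genes). Their median of -0.04 became positive under each rescaling (0.06 with median-of-ratios factors, 0.12 with quantile normalization). BBX15, a B-box protein, had 108, 113 and 129 TPM in cotyledons and 249.5, 258 and 283 TPM in leaves (log2 fold change 1.17 ± 0.12 (SE), adjusted p = 0.00141). PKS2, a phytochrome kinase substrate of leaf positioning and flattening, had 13.8, 4.69 and 12.9 TPM in cotyledons and 45.2, 43.6 and 24.3 TPM in leaves (log2 fold change 1.82 ± 0.41 (SE), adjusted p = 0.0163). GIGANTEA (GI), an evening clock protein, had 33.8, 19.3 and 33.7 TPM in cotyledons and 18.6, 16.4 and 14.2 TPM in leaves (log2 fold change -0.75 ± 0.23 (SE), adjusted p = 0.0443). Its call was lost under quantile normalization, median-of-ratios rescaling and rescaling without the 10 most abundant genes. Each of these gave 3 members higher and 0 lower. BBX24, the most abundant member, had 243, 209 and 271 TPM in cotyledons and 263, 233 and 235 TPM in leaves (adjusted p = 0.907). The morning factor LHY had 58.8, 117 and 72.5 TPM in cotyledons and 97.7, 89.2 and 69.5 TPM in leaves (adjusted p = 0.802). Leaving out single libraries ended the call of PKS2 without leaf replicate 2 (adjusted p up to 0.0572) and of GI without cotyledon replicate 1 or 3 or leaf replicate 1, 2 or 3 (adjusted p up to 0.134).

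Of 9 tested defence genes 3 fell (33.3%, beside 20.6% of all genes) and none rose, with a median of -1.14. Without cotyledon replicate 2 and leaf replicate 3, 1 was higher and 3 were lower, with a median of -0.74. The ABC transporter ABCG40 had 31.9, 71.9 and 50.7 TPM in cotyledons and 7.87, 7.70 and 5.80 TPM in leaves (log2 fold change -2.63 ± 0.29 (SE), adjusted p = 0.00172). The wall-associated kinase WAK2 had 18.7, 19.1 and 18.4 TPM in cotyledons and 6.89, 3.85 and 6.98 TPM in leaves (log2 fold change -1.55 ± 0.20 (SE), adjusted p = 0.00299). ORA59, an ERF factor of jasmonate and ethylene defence, had 7.02, 4.19 and 8.56 TPM in cotyledons and 4.17, 1.31 and 1.99 TPM in leaves (log2 fold change -1.16 ± 0.35 (SE), adjusted p = 0.0396). NIMIN1, which binds the salicylic acid regulator NPR1, had 1.11, 15.0 and 1.397 TPM in cotyledons and 0.0803, 0.206 and 0.223 TPM in leaves, with cotyledon replicate 2 above all others, and did not pass (adjusted p = 0.0867). The defensin PDF1.4, the most abundant member, had 242, 97.5 and 237 TPM in cotyledons and 112, 183 and 24.4 TPM in leaves (adjusted p = 0.261), with overlapping tissues. With 1 library fewer, an adjusted p of 0.05 was missed by ORA59 without cotyledon replicate 1 or 3 or leaf replicate 2 or 3 (adjusted p up to 0.122).

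Among genes of gibberellin, ethylene and jasmonate, 2 of 11 fell (18.2%, beside 20.6% of all genes) and none rose, with a median of -0.83. Leaving out cotyledon replicate 2 and leaf replicate 3 gave 1 higher, 3 lower and a median of -0.51. ACO4, an ACC oxidase that makes ethylene, had 24.2, 67.5 and 19.5 TPM in cotyledons and 7.74, 4.59 and 10.9 TPM in leaves (log2 fold change -1.98 ± 0.49 (SE), adjusted p = 0.0215). JAZ1, a repressor of jasmonate responses that jasmonate itself induces, had 40.3, 47.2 and 36.1 TPM in cotyledons and 27.8, 11.7 and 13.7 TPM in leaves (log2 fold change -1.26 ± 0.30 (SE), adjusted p = 0.02). JAZ5 and JAZ8 had log2 fold changes of -1.32 and -1.17 and did not pass (adjusted p = 0.0567 and 0.105). The gibberellin 3-oxidase GA3OX1, which makes the active hormone, had 1.67, 15.3 and 2.61 TPM in cotyledons and 12.5, 15.3 and 16.1 TPM in leaves (adjusted p = 0.101), where cotyledon replicate 2 lay within the leaf range. The ethylene receptor ERS2 had 99.8, 48.0 and 103 TPM in cotyledons and 79.0, 75.3 and 35.9 TPM in leaves (adjusted p = 0.459). The threshold was no longer passed by ACO4 without leaf replicate 1 or 2 (adjusted p up to 0.0695) and by JAZ1 without cotyledon replicate 1 or leaf replicate 2 or 3 (adjusted p up to 0.0593).

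Of 5 tested cold and dehydration genes, 2 fell and 1 rose (40 and 20%, beside 20.6 and 15.6% of all genes), with a median of -0.47. ZAT10, a zinc finger repressor of stress responses, had 87.0, 65.9 and 74.9 TPM in cotyledons and 21.7, 15.95 and 11.9 TPM in leaves (log2 fold change -2.16 ± 0.22 (SE), adjusted p = 0.00137). HAI2, a protein phosphatase of abscisic acid signalling, had 20.3, 27.6 and 26.1 TPM in cotyledons and 14.2, 7.73 and 4.77 TPM in leaves (log2 fold change -1.48 ± 0.34 (SE), adjusted p = 0.0168). LEA3, a late embryogenesis abundant protein found in organelles, had 73.9, 166 and 60.7 TPM in cotyledons and 203, 213 and 422 TPM in leaves (log2 fold change 1.53 ± 0.44 (SE), adjusted p = 0.0346), with leaf replicate 3 and cotyledon replicate 2 highest in their tissues. The dehydrin ERD10 had 515, 823 and 707 TPM in cotyledons and 871, 456 and 283 TPM in leaves (adjusted p = 0.391) and overlapped between the tissues. Without cotyledon replicate 2 and leaf replicate 3 together, 2 members were higher, 2 were lower and the median was 0.06. The calls lost on leaving out 1 library were those of HAI2 without cotyledon replicate 3 or leaf replicate 2 (adjusted p up to 0.0567) and of LEA3 without cotyledon replicate 1 or 3 or leaf replicate 1, 2 or 3 (adjusted p up to 0.105).

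Redox enzymes changed in both directions within 1 gene family. The tau-class glutathione S-transferases conjugate glutathione to toxic compounds. GSTU26 of this class had 1481, 2041 and 1339.7 TPM in cotyledons and 421, 179 and 419.6 TPM in leaves (log2 fold change -2.33 ± 0.36 (SE), adjusted p = 0.00506), and the highest mean of the list. GSTU18 had 5.78, 9.05 and 6.40 TPM in cotyledons and 29.8, 34.8 and 42.8 TPM in leaves (log2 fold change 2.19 ± 0.19 (SE), adjusted p = 0.000964) and so moved the other way, as did GSTU17 with 4.47, 5.50 and 4.38 TPM in cotyledons and 19.3, 46.6 and 10.7 TPM in leaves (log2 fold change 1.96 ± 0.47 (SE), adjusted p = 0.0189). The copper/zinc superoxide dismutase CSD1 had 172, 224 and 185 TPM in cotyledons and 392, 337 and 255 TPM in leaves (log2 fold change 0.74 ± 0.19 (SE), adjusted p = 0.0241). In all 3 of 7 tested members rose and 1 fell (42.9 and 14.3%, beside 15.6 and 20.6% of all genes), with a median of 0.21. The ascorbate peroxidase APX1 had 577, 769.6 and 637 TPM in cotyledons and 479, 424 and 509 TPM in leaves and did not pass (adjusted p = 0.0504). These transferases are a family of similar copies, between which reads may be divided. Leaving out single libraries ended the call of GSTU17 without cotyledon replicate 1 or 3 (adjusted p up to 0.0611) and of CSD1 without cotyledon replicate 1 or 3 or leaf replicate 1 or 2 (adjusted p up to 0.0817).

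Glucosinolates are the sulfur-containing defence compounds of the cabbage family. Of 6 pathway genes 2 fell (33.3%, beside 20.6% of all genes) and none rose, with a median of -0.53. MYB51, which activates the indole glucosinolate genes, had 62.0, 102 and 73.8 TPM in cotyledons and 33.8, 25.4 and 49.7 TPM in leaves (log2 fold change -1.13 ± 0.28 (SE), adjusted p = 0.0216). GSOX5, which oxidises the side chain, had 10.7, 11.4 and 10.4 TPM in cotyledons and 6.34, 5.23 and 6.63 TPM in leaves (log2 fold change -0.75 ± 0.12 (SE), adjusted p = 0.00502). CYP79F1, the entry enzyme from chain-elongated methionine, had 12.4, 58.2 and 34.6 TPM in cotyledons and 78.2, 6.26 and 29.0 TPM in leaves (adjusted p = 0.856). The sulfotransferase SOT17 had 1.896, 9.43 and 3.80 TPM in cotyledons and 9.88, 1.05 and 9.47 TPM in leaves (adjusted p = 0.828). In both genes the highest and the lowest of the 6 values came from leaf replicate 1 and leaf replicate 2. UGT74B1, the glucosyltransferase of the core pathway, had 42.6, 68.1 and 53.1 TPM in cotyledons and 37.4, 15.9 and 34.8 TPM in leaves (adjusted p = 0.0693). With 1 library fewer, an adjusted p of 0.05 was missed by MYB51 without cotyledon replicate 3 or leaf replicate 1 or 2 (adjusted p up to 0.061).

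In the phenylpropanoid list 1 of 5 tested members changed, a fall (20%, beside 20.6% of all genes). MYB3, a repressor of phenylpropanoid genes, had 66.3, 45.4 and 65.5 TPM in cotyledons and 30.3, 25.3 and 9.95 TPM in leaves (log2 fold change -1.51 ± 0.39 (SE), adjusted p = 0.026), while the median was -0.17. CCR1, a cinnamoyl-CoA reductase of lignin synthesis, had 74.1, 85.4 and 75.5 TPM in cotyledons and 95.8, 92.7 and 105 TPM in leaves (adjusted p = 0.0595). OPCL1 is in this list only as an acyl-CoA ligase of the 4-coumarate-CoA ligase-like family. It had 39.8, 64.0 and 41.1 TPM in cotyledons and 40.2, 16.04 and 35.3 TPM in leaves (adjusted p = 0.161). Under quantile normalization and under median-of-ratios rescaling CCR1 passed as higher in leaf. The threshold was no longer passed by MYB3 without cotyledon replicate 1 or 3 (adjusted p up to 0.0817).

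In the list of sugar and nitrogen transport, which also holds the starch enzymes, 2 of 10 tested members rose and 3 fell (20 and 30%, beside 15.6 and 20.6% of all genes), with a median of -0.17. SS3, a starch synthase, had 8.22, 7.77 and 10.7 TPM in cotyledons and 18.1, 22.1 and 25.0 TPM in leaves (log2 fold change 1.20 ± 0.16 (SE), adjusted p = 0.00339). ISA2, a debranching enzyme that shapes the starch granule, had 1.85, 3.50 and 2.43 TPM in cotyledons and 5.85, 7.39 and 9.91 TPM in leaves (log2 fold change 1.28 ± 0.23 (SE), adjusted p = 0.00814). The vacuolar invertase, which splits stored sucrose, had 179, 181 and 217 TPM in cotyledons and 117, 84.7 and 56.5 TPM in leaves (log2 fold change -1.20 ± 0.26 (SE), adjusted p = 0.0137). The nitrate transporters NRT1.9, of the phloem, and NRT1.1, also a nitrate sensor, changed by -0.78 and -0.60. SUC2, the sucrose transporter that loads the phloem, was the most abundant, with 469, 348 and 472 TPM in cotyledons and 328, 301 and 289.6 TPM in leaves, and did not pass (adjusted p = 0.0539). The calls lost on leaving out 1 library were those of VAC-INV without cotyledon replicate 3 (adjusted p up to 0.0516) and of NRT1.1 without cotyledon replicate 2 or 3 or leaf replicate 2 or 3 (adjusted p up to 0.0957).

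Of 7 genes of metal, phosphate and sulfur nutrition 3 were lower and 1 was higher in leaves (42.9 and 14.3%, beside 20.6 and 15.6% of all genes), with a median of -0.77. NAS3 makes nicotianamine, which carries metals through the plant. It had 109, 83.6 and 132 TPM in cotyledons and 44.5, 38.6 and 33.5 TPM in leaves (log2 fold change -1.44 ± 0.19 (SE), adjusted p = 0.00314). The zinc transporter ZIP5 had 116, 141 and 135 TPM in cotyledons and 79.7, 51.8 and 71.7 TPM in leaves (log2 fold change -0.96 ± 0.18 (SE), adjusted p = 0.00895). PEPC1, a phosphatase that frees phosphate from phospholipid head groups, had 5.40, 6.69 and 10.4 TPM in cotyledons and 2.59, 2.69 and 1.32 TPM in leaves (log2 fold change -1.398 ± 0.27 (SE), adjusted p = 0.01). FRO2, the ferric chelate reductase known from roots, had 12.6, 10.9 and 11.9 TPM in cotyledons and 23.6, 30.3 and 24.4 TPM in leaves (log2 fold change 1.07 ± 0.13 (SE), adjusted p = 0.00217). The sulfate transporter SULTR3;3 had 128, 148 and 123 TPM in cotyledons and 115, 104 and 158 TPM in leaves (adjusted p = 0.681).

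Genes of sugar starvation, senescence and amino acid breakdown differed widely between replicates. Of 9 tested members 2 fell and 1 rose (22.2 and 11.1%, beside 20.6 and 15.6% of all genes), with a median of -0.72. SRG1, a senescence-related oxidoreductase-like protein, had 3.33, 4.25 and 4.51 TPM in cotyledons and 1.05, 0.723 and 1.45 TPM in leaves (log2 fold change -1.28 ± 0.18 (SE), adjusted p = 0.00365). ACX3, of peroxisomal fatty acid breakdown, had 52.6, 54.5 and 48.8 TPM in cotyledons and 39.1, 36.8 and 30.4 TPM in leaves (log2 fold change -0.55 ± 0.12 (SE), adjusted p = 0.016). The mitochondrial branched-chain aminotransferase BCAT1 had 7.10, 3.81 and 5.40 TPM in cotyledons and 15.9, 11.3 and 10.9 TPM in leaves (log2 fold change 1.102 ± 0.23 (SE), adjusted p = 0.012). The dormancy-associated gene DYL1, the most abundant member, had 2518, 541 and 1723 TPM in cotyledons and 1199.9, 622 and 92.4 TPM in leaves and did not pass (adjusted p = 0.221). BCAT2, the aminotransferase paralog of BCAT1, had 321, 106 and 285 TPM in cotyledons and 281, 159 and 37.0 TPM in leaves (adjusted p = 0.42). MCCA, of leucine breakdown, had 343, 111 and 310.1 TPM in cotyledons and 259.9, 173 and 55.8 TPM in leaves (adjusted p = 0.399). In DYL1, BCAT2, MCCA and BCKDH E1-alpha (422, 274 and 436 TPM in cotyledons and 349, 283 and 158 TPM in leaves) cotyledon replicate 2 and leaf replicate 3 were each the lowest of their tissue. Leaving out single libraries ended the call of ACX3 without cotyledon replicate 1 (adjusted p up to 0.0537).

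These are also the 2 libraries that component 2 set apart. HFR1, a bHLH factor of shade responses, had 68.7, 14.0 and 49.6 TPM in cotyledons and 40.4, 23.4 and 2.64 TPM in leaves (adjusted p = 0.332), and the same libraries were lowest in TEM1, ERS2 and PDF1.4. In the light reactions they were the highest of their tissues in 12 and 15 of 15 genes, as given above. The labels give no batch or harvest time for them. Without both libraries 2370 genes were higher and 2729 lower in leaf. That fit, with 2 libraries per tissue, was chosen after the data were seen.

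**Figure D5:**
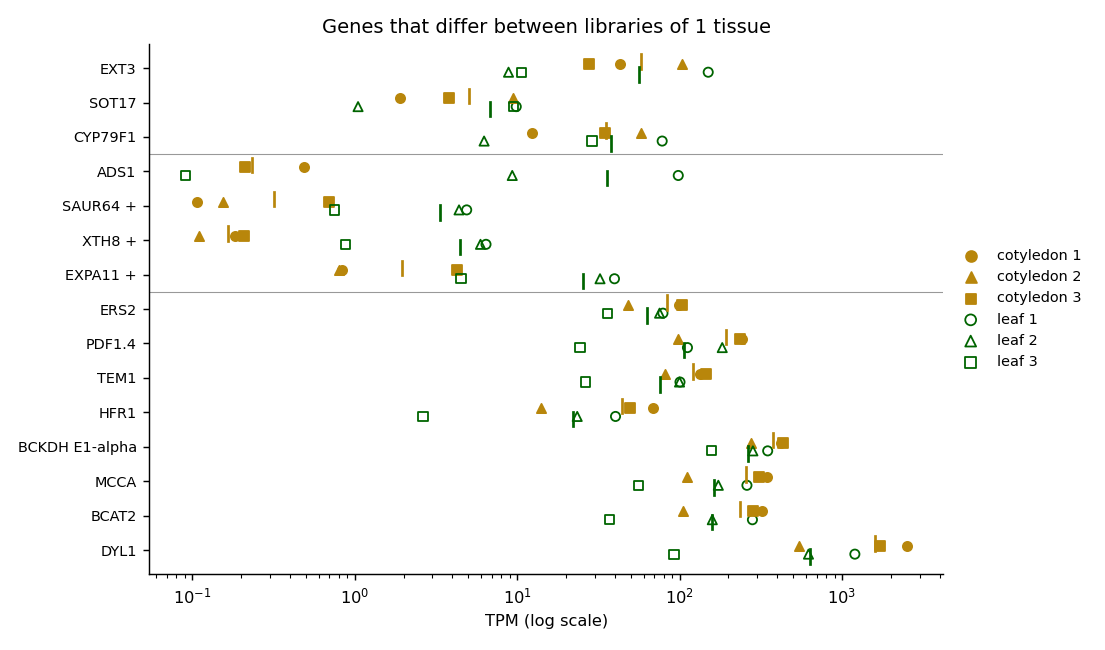
TPM of each library on a log axis for 15 genes chosen after their values were seen, with symbols, bars and signs as in the plot of the chloroplast genes. In the bottom group cotyledon replicate 2 and leaf replicate 3 lie lowest in their tissues, in the middle group leaf replicate 3 lies far below leaf replicates 1 and 2, and in the top group the leaf libraries span the cotyledon values. The value of 0 of ADS1 in cotyledon replicate 2 cannot be drawn on a log axis.

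Of the paired markers of other organs, PRX7, AHL27 and CYP703A2 had a mean of at least 1 TPM, and the others lay below it. Of the seed markers, OBAP1A and the embryo regulator LEC1 were at 0 to 0.237 TPM in all 6 libraries, and the other 4 of 6 had no pair. Of 5 root markers only the peroxidase PRX7 had a pair, with 3.59, 8.19 and 3.75 TPM in cotyledons and 6.46, 10.2 and 8.51 TPM in leaves (adjusted p = 0.123). The floral factor SEP3 had 0.239, 0.149 and 0.454 TPM in cotyledons and 0, 0 and 0.0323 TPM in leaves. The pollen wall gene CYP703A2 had 1.17, 1.48 and 1.02 TPM in cotyledons and 1.82, 1.47 and 1.65 TPM in leaves (adjusted p = 0.21). Of the shoot apex markers, the KNOX factor KNAT6 had 0.443, 0.436 and 0.710 TPM in cotyledons and 0.356, 0.200 and 0.0822 TPM in leaves. AHL27 had 1.95, 1.24 and 2.83 TPM in cotyledons and 6.94, 4.90 and 1.49 TPM in leaves (adjusted p = 0.223), highest in leaf replicates 1 and 2. DRN and DRNL had no pair. List members with no pair, markers included, were above 0 in fewer than 3 of the 6 libraries in the study's ortholog table. None of the 3 markers tested (PRX7, CYP703A2 and AHL27) passed, but without cotyledon replicate 2 and leaf replicate 3 PRX7 and AHL27 passed as higher in leaf, with log2 fold changes of 0.97 and 1.03.

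The same test was run in the other lines of the series, each on its own table. There it called 50.4% of the genes in B. napus DH12075 (8588 higher and 12164 lower in leaf), 29.4% in B. napus N99 (7078 and 5051) and 37.4% in C. sativa DH55 (3330 and 12310), beside the 36.1% of pennycress. The median absolute log2 fold change was 0.35 in pennycress, 0.43 in DH12075, 0.40 in N99 and 0.31 in DH55. The tables of the 3 species hold other genes, and the differences between lines, also between the B. napus lines, were not tested. No rescaling was tried in the other lines. Whether their balance of higher and lower genes depends on the scaling, as in pennycress, is therefore unknown.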

How the data were processed

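RNA was sequenced from 3 cotyledon and 3 leaf libraries of pennycress, grouped by the sample labels, which name 3 biological replicates per tissue as the methods of the study also do. Per the methods and labels, the authors trimmed reads with Trimmomatic (version 0.32), quantified them with Salmon (version 1.10.0) against a pennycress transcriptome and deposited gene-level TPM obtained with tximport. Salmon divides reads between near-identical copies by estimation. Leaf was compared with cotyledon with limma (version 3.58.1, R 4.3.3; lmFit, eBayes with variance trend) on log2(TPM + 1), with a pseudocount of 1, for genes averaging 1 TPM or more, two-sided, with Benjamini-Hochberg adjustment over all 14617 genes and a threshold of 0.05. Tested on simulated data for this comparison of 14617 genes, it recovered 64 of 100 genes changed by 1 and 91 of 100 changed by 2 on the log2 scale, with 9 false calls. In that simulation only these genes were changed, all lay above about 10 TPM, and the noise was normal. In the data 36.1% of genes were called and many were lower, so the recovery and false calls there can differ.

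IDs were paired with Arabidopsis genes where the deposited TPM and a row of the study's ortholog table had the same values over the 6 libraries, up to 1 factor per library and 1 per gene. Of 1938 genes in the part of that table used here, 1733 were above 0 in at least 3 libraries and each fitted 1 ID, while 205 were at 0 or above 0 in fewer libraries and were left out. Of 200 simulated rows 200 were traced back. They were deposited rows multiplied by the fitted factors with no noise, so this tests only whether an ID can be told from the others. No value was taken from that table.

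The 27 lists (235 genes, of which 216 were paired and 187 tested) were written from general knowledge of Arabidopsis. The members and lists were chosen with earlier results of these data known, so no test was made over a list. Named are the 10 paired genes that rose and the 10 that fell most among called genes averaging 10 TPM or more in which the tissues did not overlap, 2 unpaired IDs each way, the most changed called and the most abundant members of each list, members needed to state small counts, and all paired markers. The genes in the plot and the text on differences between libraries of 1 tissue were in part chosen after their values were seen. Other calculations used Python 3.11.15 with numpy 2.4.6 and pandas 2.3.3.

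Alternatives were pseudocounts of 0.1 and 5, a minimum of 5 TPM on the mean, no filter, quantile normalization, rescaling by median-of-ratios factors or without the 10 most abundant genes, no variance trend, a minimum of 1 on the absolute log2 fold change, the replicate number as a block, each library left out in turn and, chosen after the data were seen, cotyledon replicate 2 and leaf replicate 3 left out together.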

Additional observations from a re-analysis of the deposited data

How the results depend on the processing

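The count of 5283 called genes was between 4200 and 5840 under both other pseudocounts, both other filters, all 3 rescalings and the fit with no variance trend, and 5099 without cotyledon replicate 2 and leaf replicate 3. A minimum of 1 on the absolute log2 fold change left 2022 genes, 981 higher and 1041 lower. Leaving out 1 library gave between 3115 (without cotyledon replicate 3) and 5006 (without cotyledon replicate 2) called genes, 1477 to 2203 higher and 1607 to 2821 lower. The count fell by over 1.5 times without cotyledon replicate 1 (3491), cotyledon replicate 3 (3115) or leaf replicate 2 (3158), fits that also have fewer samples. Same-numbered cotyledon and leaf libraries deviated from their tissue means with correlations of 0.14, -0.34 and -0.37 across genes. No library correlated best with its own number, and the highest value was 0.46, for cotyledon replicate 2 and leaf replicate 3. With 3 libraries per tissue and those libraries apart from the rest, the values cannot tell whether same-numbered libraries share seedlings or a harvest. With the replicate number as a block, 3300 genes were called, 1592 higher and 1708 lower. The share of higher genes among those called was 43.1%, and 52.6% with quantile normalization, 52.9% with median-of-ratios factors and 47.6% without the 10 most abundant genes. Of the 103 named genes and list members called, none changed sign under any alternative, 20 were lost with the block and 10 to 26 when 1 library was left out. The lowest correlation between replicates was 0.970 over genes with at least 1 TPM and 0.988 over all genes, which include those listed at 0. The unknown depth limits what can be said of genes near 1 TPM.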
